A study of Homo sapiens with 4 samples.

Results

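The 35 genes described here encode the enzymes and regulators that remove peroxides and superoxide and that make and use glutathione. They were taken by name from a table of 23576 rows, and each of the 35 has its own row. They were sorted by role into 8 systems. RNA was sequenced from the SH-SY5Y line, which derives from a human neuroblastoma and has sympathoadrenal features, in 2 groups of 2 libraries each. Undifferentiated cells were grown in medium with 10% fetal bovine serum and stand for day 0. Differentiated cells were plated in 5% serum, received retinoic acid at 10 µM for 7 days, and were then kept without serum for 9 days, to day 16, in 20 ng/mL of the neurotrophin BDNF. All cells are of the same line, so the groups differ in retinoic acid, BDNF, serum and time in culture together, and these cannot be told apart. The table gives 1 FPKM (fragments scaled for transcript length and sequencing depth) per gene and group, so no spread between libraries can be shown and library depth is unknown. All FPKM values below are the authors' group values.

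Cells keep peroxides low with parallel thiol systems. Glutathione, a tripeptide made by glutamate-cysteine ligase and glutathione synthetase, supplies electrons to glutathione peroxidases and is attached to electrophiles by glutathione S-transferases. Thioredoxin, kept reduced by thioredoxin reductase, supplies electrons to most peroxiredoxins. Superoxide dismutases turn superoxide into hydrogen peroxide, which catalase, peroxiredoxins and glutathione peroxidases remove. Many of these genes are induced by the transcription factor NRF2 (gene NFE2L2), which KEAP1 holds back and marks for degradation in unstressed cells. Neurons have a high oxygen demand, and in mice the loss of GPX4 is known to kill them.

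Differentiated cells had more TXNIP mRNA, which encodes the inhibitor of thioredoxin, and much less GPX1 mRNA, which encodes the main cytosolic glutathione peroxidase. Most of the other antioxidant genes moved down by about as much as the typical gene in the same table. Of the members, the authors' deposited table called 18 of the 33 tested lower in differentiated cells at a q-value below 0.05 and 1 higher (TXNIP), and left 14 uncalled. HMOX1 and GPX8 were not tested there. The median log2 fold change (differentiated over undifferentiated) of the 33 members was -0.74. Over the 11169 tested genes that averaged 1 FPKM or more and had a usable statistic it was -0.62, with 84.0% of folds negative. Among 11200 genes tested with that mean, 31.4% were called lower and 2.2% higher in the authors' deposited table. The share called lower grew with level, and reached 61.9% in the top 1 of 10 equal bins of mean FPKM, where 9 of 12 members were called lower.

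Because folds were not centred on 0, each gene was also compared with the median gene. The fold change less the median of -0.62 was divided by an implied standard error (SE), which is the size of the gene's log2 fold change over that of the authors' test statistic. Normal p-values, two-sided, were then corrected over all 11169 genes (Benjamini-Hochberg). By this test 1 of 33 members lay above the median gene (TXNIP) and 1 below it (GPX1), where 5.64% of all genes lay above and 4.56% below. The remaining 31 members could not be told from the median gene, with 20 of them below it and 11 above it in value. In 27 of 33 members the fold lay within 0.5 log2 units of the median gene, as it did in 63.1% of all genes. The implied standard error of the members ranged from 0.215 (TXNIP) to 0.982 (TXNRD2). The labels do not say whether the 2 libraries of a group came from separate cultures, so these p-values may measure technical spread.

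**Figure D1:**
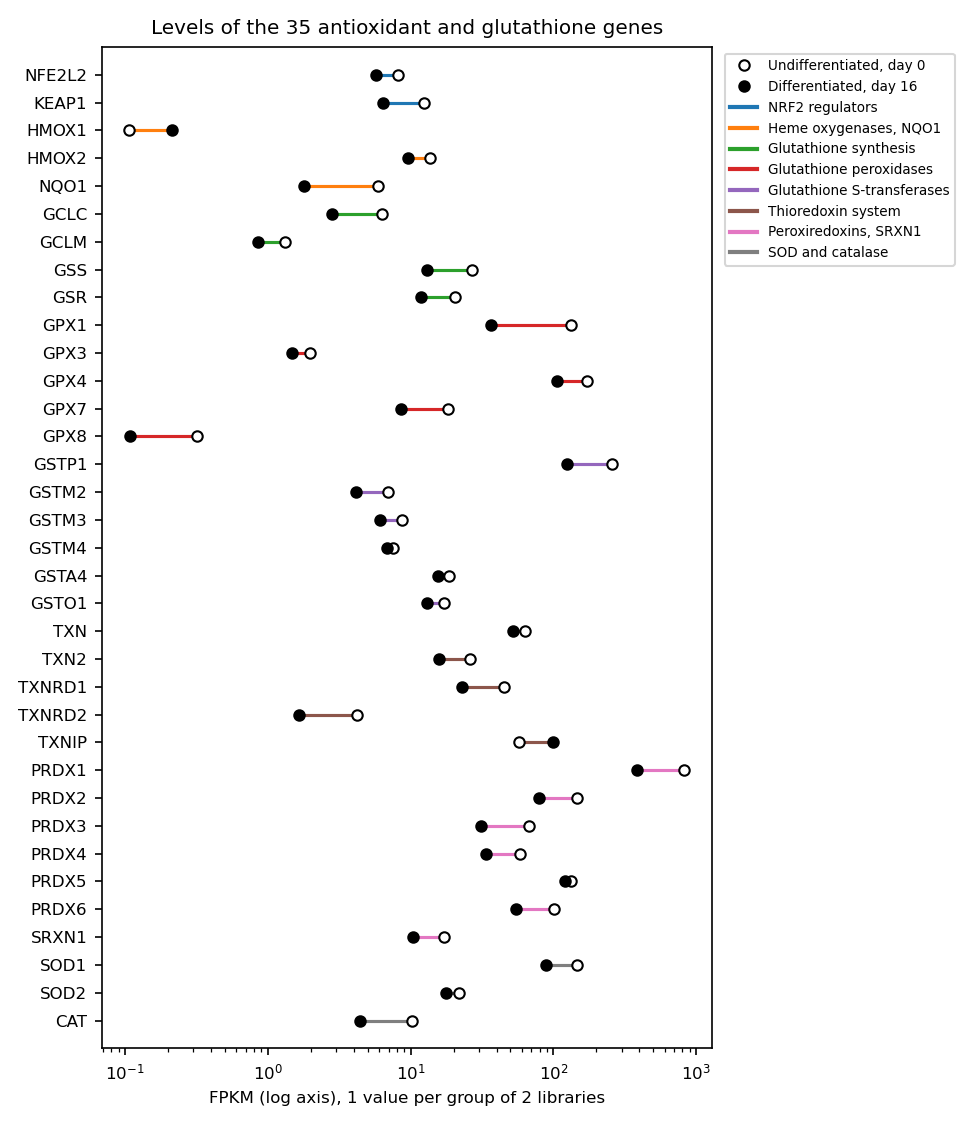
FPKM of each of the 35 members on a log axis, with an open circle for undifferentiated and a filled circle for differentiated cells, 1 value per group, and lines coloured by system. PRDX1 was the most abundant member in both groups, and TXNIP is the member above 1 FPKM whose filled circle lies to the right.

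**Figure D2:**
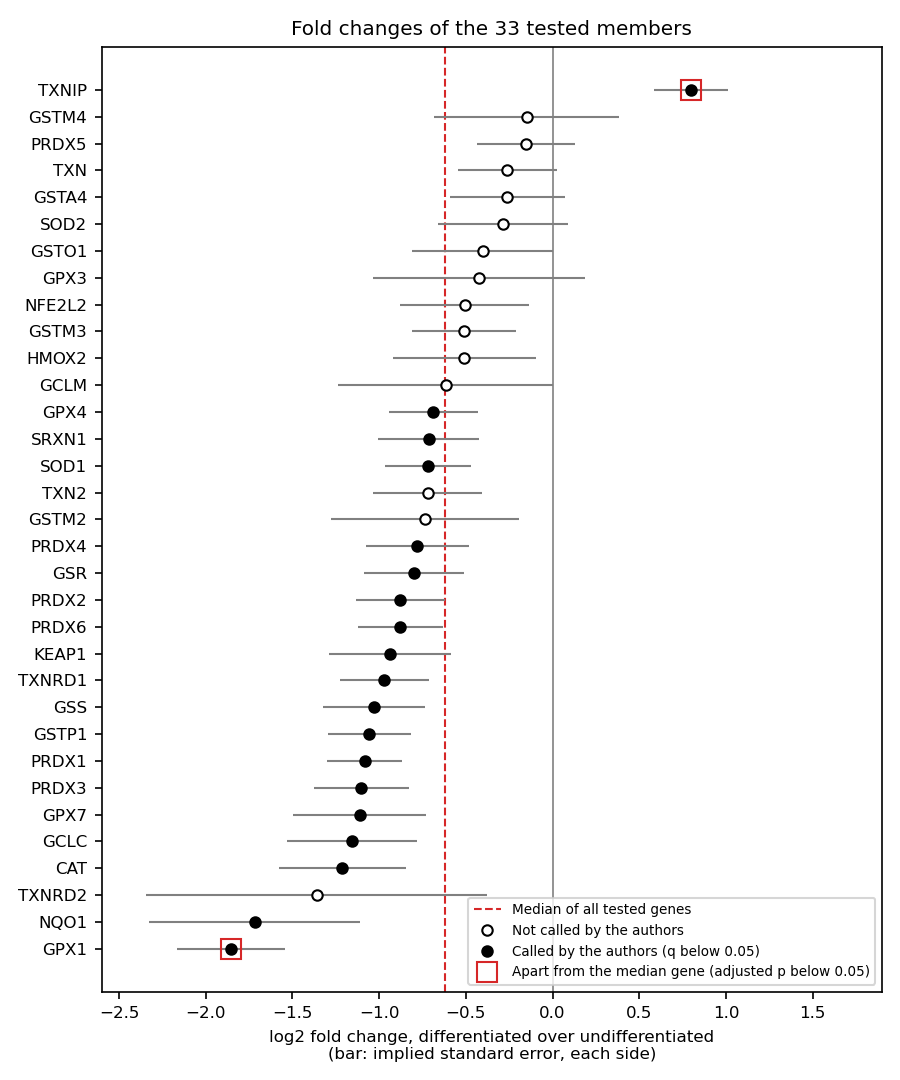
Log2 fold change of the 33 tested members (x axis) with bars of 1 implied standard error on each side. The solid line is 0 and the dashed line the median of all tested genes (-0.62). Filled circles were called in the authors' deposited table, and the squares around TXNIP and GPX1 mark the members that lay apart from the median gene.

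The regulators were present at moderate levels. NFE2L2 stood at 8.18 FPKM before and 5.75 FPKM after differentiation, and its log2 fold change of -0.51 was not called (q = 0.306) in the authors' deposited table. KEAP1 went from 12.3 to 6.43 FPKM and was called lower, at -0.94 (implied SE 0.352, q = 0.0300), in the authors' deposited table. Against the median gene neither differed, with adjusted p of 0.935 for NFE2L2 and 0.722 for KEAP1 by the normal test. The NFE2L2 fold took a positive sign, between 0.10 and 0.27, when folds were centred on the median gene, scaled to equal sums over all rows or quantile normalized.

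NQO1, the quinone reductase often used as a readout of NRF2 activity, went from 5.91 to 1.80 FPKM. Its log2 fold was -1.72 (SE 0.609, q = 0.0207) in the authors' deposited table. It had the second lowest value relative to the median gene, at -1.10, but was not separated from it (adjusted p = 0.306, normal test; 95% interval -2.29 to 0.10). HMOX1, the inducible heme oxygenase, was nearly absent at 0.107 and 0.214 FPKM. HMOX2, the constitutive form, stood at 13.6 and 9.57 FPKM (log2 -0.51, q = 0.358, in the authors' deposited table).

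Across 9 members counted here as classic NRF2 targets (HMOX1, NQO1, GCLC, GCLM, GSR, TXN, TXNRD1, PRDX1 and SRXN1), the authors' deposited table called 6 of 8 tested lower, while 0 lay apart from the median gene by the adjusted normal test and 1, PRDX1, at an unadjusted p below 0.05. Of all genes, 31.4% were called lower there, from 5.91% in the lowest of 10 bins of mean FPKM to 61.9% in the highest. The median log2 fold of the tested targets was -0.89, against -0.74 for all tested members and -0.62 for all genes. Summed over the 9, FPKM went from 979 to 490.4, of which PRDX1 alone held 819.9 and 387, so this sum mostly describes PRDX1.

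The best known route from NRF2 to these genes is the antioxidant response element, so the start regions of the members were searched for its core, TGACNNNGC on either strand. RefSeq start regions (GRCh38.p14, from 250 bases before to 50 after a start) were found for 28 of the 35 members, with 41 entries. The 7 members without an entry, HMOX1, GSS, GSR, TXN2, PRDX1, PRDX6 and SOD1, were not searched. Sequence further from a start was not searched for any member, so a gene without a match may hold the core elsewhere. The core was present in 7 of these 41 entries, which is 17.1%, and in 13.3% of all 35116 entries of the same length. The members that held it were GCLM, GSTA4, GSTO1, GSTP1, KEAP1 and TXNRD1. Of these, the authors' deposited table called GSTP1, TXNRD1 and KEAP1 lower and did not call GCLM, GSTA4 or GSTO1. The stretches of GCLM, GSTP1 and both starts of TXNRD1 are shown because they carry the element in genes of 3 different systems. Capitals mark the element core and, in the second TXNRD1 stretch, also the letters CACGAG described with TXNIP. They are written 5′ to 3′ on the gene's strand, at chr1:93909436-93909484 (minus strand), chr11:67583726-67583774 (plus), chr12:104215660-104215799 (plus) and chr12:104286910-104286958 (plus).
GCLM: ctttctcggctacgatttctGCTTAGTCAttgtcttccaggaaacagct
GSTP1: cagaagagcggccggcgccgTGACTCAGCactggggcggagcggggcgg
TXNRD1 first start: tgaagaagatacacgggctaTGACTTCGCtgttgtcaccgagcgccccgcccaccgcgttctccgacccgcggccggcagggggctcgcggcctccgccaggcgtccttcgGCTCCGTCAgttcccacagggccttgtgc
TXNRD1 second start: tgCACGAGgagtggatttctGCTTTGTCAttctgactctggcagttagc
A match is a description of the letters and not evidence that a factor binds there.

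Genes for making and recycling glutathione were called lower in 3 of 4 cases in the authors' deposited table, where 31.4% of all genes were. GCLC, the catalytic subunit of glutamate-cysteine ligase, went from 6.31 to 2.83 FPKM (log2 -1.16, implied SE 0.374, q = 0.0105) in the authors' deposited table. GCLM, its modifier subunit, stood at 1.31 and 0.855 FPKM, a log2 fold of -0.62 that was not called (q = 0.473) in the authors' deposited table. The catalytic subunit was thus at 4.81 times the FPKM of the modifier before and 3.31 times after, and the difference between their log2 folds, -0.54, had a 95% interval from -1.96 to 0.88. GSS, glutathione synthetase, went from 26.7 to 13.1 FPKM and GSR, which regenerates reduced glutathione, from 20.5 to 11.8 FPKM. Their log2 folds were -1.03 (SE 0.294, q = 0.00356) and -0.80 (SE 0.286, q = 0.0220) in the authors' deposited table. Relative to the median gene all 4 adjusted p-values lay between 0.471 and 0.999 by the normal test.

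Among the glutathione peroxidases the abundant pair GPX1 and GPX4 parted. GPX1, which reduces hydrogen peroxide in cytosol and mitochondria, lies at chromosome 3, 49394609 to 49395791 (hg19). It fell from 132 to 36.5 FPKM, to 27.7% of its undifferentiated level, which is a log2 fold of -1.85 (SE 0.312, q = 1.62e-07) in the authors' deposited table. It lay 1.23 log2 units below the median gene (95% interval -1.84 to -0.62; adjusted p = 0.00204, normal test). By level it went from rank 458 to rank 1013 of 11169 genes. GPX4, which reduces lipid peroxides in membranes, went from 172 to 106 FPKM and held rank 361 in both groups. Its log2 fold of -0.69 (SE 0.256, q = 0.0280) was a call for lower in the authors' deposited table, but lay 0.07 below the median gene (adjusted p = 0.947, normal test) and turned to 0.09 with equal sums. The log2 fold of GPX1 was lower than that of GPX4 by 1.16, with a 95% interval of the difference from -1.95 to -0.37. Scaling both groups by a common factor leaves this difference as it is. This pair, like the other gene pairs compared here, was chosen after the values were seen, so no p is given and its interval is a description.

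GPX7, a peroxidase of the endoplasmic reticulum that uses cysteine in place of selenocysteine, went from 18.4 to 8.50 FPKM (log2 -1.11, SE 0.384, q = 0.0172) in the authors' deposited table. GPX8, its membrane-bound relative, was near absent at 0.321 and 0.108 FPKM. GPX3, a secreted form, stood at 1.98 and 1.48 FPKM (log2 -0.42, q = 0.633) in the authors' deposited table. Of the 50-base words in the longest coding GPX1 transcript of GENCODE release 29, 21.5% also occur in transcripts of the processed pseudogenes GPX1P1 and GPX1P2, so reads could be split between the gene and these copies. Neither pseudogene has a row in the table. Their part in the GPX1 value was not tested. The GPX1 start region is shown as that of the member that fell furthest, at chr3:49358304-49358603 on the minus strand (GRCh38.p14), with capitals for the E-box CACGTG that begins 24 bases before the start. That motif, which reads the same on both strands, was present in 7.26% of all start regions and 4 of the 41 member entries.
GPX1: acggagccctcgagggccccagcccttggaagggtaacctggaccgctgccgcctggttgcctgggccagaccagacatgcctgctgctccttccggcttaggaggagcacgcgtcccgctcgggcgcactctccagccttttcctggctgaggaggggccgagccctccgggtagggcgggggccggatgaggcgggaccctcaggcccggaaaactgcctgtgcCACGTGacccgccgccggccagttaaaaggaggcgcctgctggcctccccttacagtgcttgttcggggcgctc

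The glutathione S-transferases join glutathione to electrophilic compounds. In the authors' deposited table, where 31.4% of all genes were called lower, 1 of 6 members was called. That was GSTP1, the dominant form in these cells, which went from 258 to 124 FPKM (log2 -1.06, implied SE 0.240, q = 0.000156) in the authors' deposited table. It was not separated from the median gene (0.44 units below, adjusted p = 0.300, normal test). GSTA4, which handles the lipid peroxidation product 4-hydroxynonenal, stood at 18.5 and 15.4 FPKM, and GSTO1, an omega-class enzyme, at 17.1 and 12.9 FPKM. The mu-class genes stood at 6.91 and 4.15 FPKM (GSTM2), 8.72 and 6.13 FPKM (GSTM3) and 7.56 and 6.82 FPKM (GSTM4). The log2 folds of these 5 uncalled members ran from -0.74 (GSTM2) to -0.15 (GSTM4) in the authors' deposited table, and those of GSTM3, GSTM4, GSTA4 and GSTO1 became positive when folds were centred on the median gene. Mu-class transcripts are alike: 48.6% of the 50-base words of GSTM2 and 11.7% of those of GSTM4 occur in transcripts of other genes, chiefly other mu-class genes, so their separate values are uncertain.

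The thioredoxin system held the one member that rose. TXNIP binds reduced thioredoxin and blocks it, and its transcription is known to respond to glucose. The gene lies at chromosome 1, 145438462 to 145442628 (hg19), and no other row of the table overlaps it. It rose from 57.4 to 99.8 FPKM, 1.74-fold, which is a log2 fold of 0.80 (SE 0.215, q = 0.00182) in the authors' deposited table. It stood 1.42 log2 units above the median gene (95% interval 1.00 to 1.84; adjusted p = 6.95e-09, normal test) and moved from rank 1035 to rank 371 by level. None of the 50-base words of its transcript occur in another gene.

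TXN, thioredoxin itself, stood at 62.9 and 52.5 FPKM, a log2 fold of -0.26 that was not called (SE 0.286, q = 0.519) in the authors' deposited table. TXNIP was therefore at 0.913 times the FPKM of TXN in undifferentiated cells and above TXN in differentiated cells. The difference between the log2 folds of TXNIP and TXN, a pair also chosen after the values were seen, was 1.06 (SE 0.358). TXNRD1, the cytosolic reductase that recycles thioredoxin, went from 44.8 to 22.9 FPKM (log2 -0.97, implied SE 0.258, q = 0.00153) in the authors' deposited table. It was 0.35 under the median gene (adjusted p = 0.509, normal test). The mitochondrial pair stood at 26.2 and 15.9 FPKM (TXN2, log2 -0.72, q = 0.0662) and at 4.23 and 1.65 FPKM (TXNRD2, log2 -1.36, q = 0.294) in the authors' deposited table. The listed locus of TXNRD1 overlaps the row of EID3, so fragments there are uncertain.

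The upstream TXNIP start region is shown because this gene alone rose, and RefSeq lists 2 starts for it. It is read on the minus strand at chr1:145996530-145996829 (GRCh38.p14). Capitals mark the forkhead core GTAAACA, 124 bases before the start, and 2 copies of CACGAG, at 88 and 77 bases before it. The paired CACGAG copies are known as the carbohydrate response element, through which the MondoA-MLX factors act on TXNIP. CACGAG was found on either strand in 6.78% of all start regions, with 111 of the 35116 holding more than 1 copy, and in 9 of the 41 member entries. GTAAACA was found in 3.42% of all start regions and in 2 member entries, those of TXNIP and GSTP1. No TGACNNNGC core was present in either TXNIP window. The motifs marked do not overlap one another.
TXNIP: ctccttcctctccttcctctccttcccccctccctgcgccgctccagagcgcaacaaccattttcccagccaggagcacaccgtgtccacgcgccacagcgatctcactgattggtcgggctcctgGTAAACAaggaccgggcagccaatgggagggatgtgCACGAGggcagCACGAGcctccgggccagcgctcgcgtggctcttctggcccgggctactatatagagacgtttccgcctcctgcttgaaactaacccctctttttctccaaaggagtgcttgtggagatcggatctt

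The peroxiredoxins, most of which reduce peroxides with electrons from thioredoxin, were the most abundant system. Of 7 genes with sulfiredoxin, the authors' deposited table called 6 lower, and none lay apart from the median gene. All 6 PRDX genes lay in the top bin of mean FPKM, where 61.9% of all genes were called lower. PRDX1, the cytosolic form, stood at 819.9 FPKM in undifferentiated cells, rank 148 of 11169, and at 387 FPKM in differentiated cells, rank 160. Its log2 fold was -1.08 (SE 0.216, q = 1.41e-05) in the authors' deposited table. It lay 0.46 below the median gene, which passed at the unadjusted p of 0.0332 and not after adjustment (adjusted p = 0.191, normal test). The locus listed for PRDX1 overlaps the row of MMACHC.

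PRDX3, the mitochondrial form, went from 67.1 to 31.2 FPKM (log2 -1.10, SE 0.273, q = 0.000610) in the authors' deposited table. PRDX2, abundant in neurons, went from 145 to 79.1 FPKM and PRDX6, which also has phospholipase activity, from 101 to 54.8 FPKM, both at a log2 fold of -0.88 in the authors' deposited table (SE 0.258 and 0.243, q of 0.00468 and 0.00251). PRDX4, of the endoplasmic reticulum, went from 58.2 to 33.9 FPKM and was called lower at -0.78 (SE 0.298, q = 0.0333) in the authors' deposited table, with a fold of 0.0026 under equal sums. PRDX5, found in mitochondria, peroxisomes and cytosol, stood apart in value at 134 and 120.3 FPKM. Its log2 fold of -0.15 was not called (SE 0.282, q = 0.723) in the authors' deposited table, and it became positive under each of the 3 other scalings. The ratio of PRDX1 to PRDX5 was 6.14 before and 3.22 after differentiation, a difference of -0.93 between log2 folds (SE 0.356). The pair was picked for the PRDX5 value, which was itself not separated from the median gene (adjusted p = 0.360, normal test).

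SRXN1, sulfiredoxin, repairs over-oxidized peroxiredoxins. It went from 17.0 to 10.4 FPKM and was called lower at -0.71 (SE 0.292, q = 0.0484) in the authors' deposited table, close to the threshold, and turned to 0.07 with equal sums. Of its 50-base words 84.7% also belong to the transcript of a second GENCODE gene model, AL121758.1, so the value may include that model.

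The dismutases and catalase differed in level and fold. SOD1, the cytosolic copper-zinc enzyme, went from 146 to 89.0 FPKM, was called lower at -0.72 (SE 0.246, q = 0.0161) in the authors' deposited table, and turned to 0.06 with equal sums and 0.04 with quantile normalization. SOD2, the mitochondrial manganese enzyme, stood at 21.6 and 17.7 FPKM (log2 -0.29, q = 0.595) in the authors' deposited table. CAT, the peroxisomal catalase, went from 10.2 to 4.42 FPKM, 43.1% of its undifferentiated level, with a log2 fold of -1.21 (SE 0.368, q = 0.00622) in the authors' deposited table. CAT lay 0.59 below the median gene without passing the test (adjusted p = 0.388, normal test). SOD2 was at 2.11 times the FPKM of CAT before and 4.01 times after, though the 95% interval of the difference in log2 folds, -0.10 to 1.95, includes 0.

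By compartment, the members counted here as mitochondrial (TXN2, TXNRD2, PRDX3 and SOD2) summed to 119 FPKM before and 66.5 FPKM after, 55.8% of the undifferentiated sum. PRDX5 (134 and 120.3 FPKM) and GPX1 (132 and 36.5 FPKM), which act in mitochondria and elsewhere, were left out. Each of them alone exceeded that sum in undifferentiated cells, so the percentage depends on which genes are counted. The members of the endoplasmic reticulum (PRDX4, GPX7 and GPX8) went from 76.9 to 42.5 FPKM, or 55.3%. All 35 members summed to 2452 and 1396 FPKM, or 56.9%. The peroxiredoxin system held 54.7% of the member sum before and 51.4% after. The thioredoxin system, counted with the inhibitor TXNIP, stayed near its sum, at 195 and 193 FPKM. TXNIP held 57.4 and 99.8 FPKM of that sum, while the other members of the system were all down in value. The share of the system with TXNIP went from 7.97% to 13.8%. Glutathione peroxidases went from 13.2% to 11.0%. These sums are descriptions with no error, since each rests on 1 value per group.

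**Figure D3:**
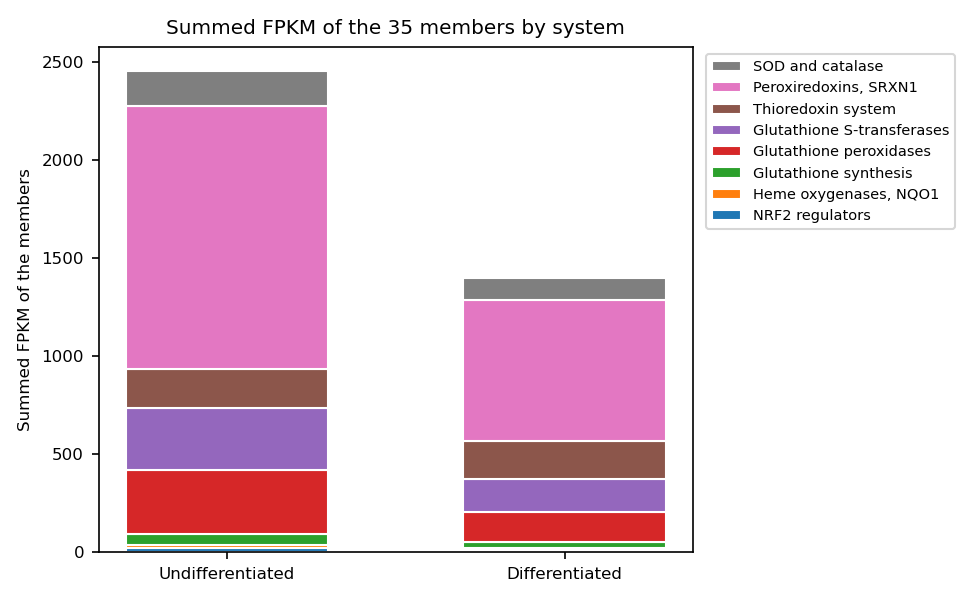
Summed FPKM of the 35 members in undifferentiated and differentiated cells, 1 bar per group, with segments for the 8 systems. The total goes from 2452 to 1396 FPKM while the thioredoxin segment, which includes the inhibitor TXNIP, is 195 and 193 FPKM.

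**Figure D4:**
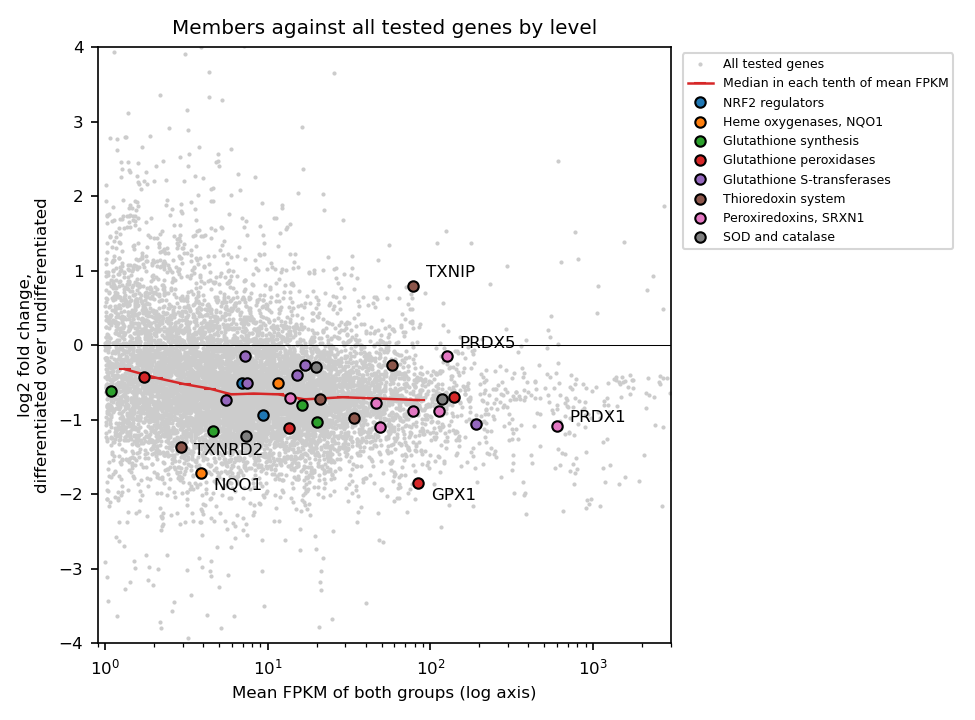
Log2 fold change against mean FPKM (log axis) for all 11169 genes in grey and the 33 tested members in colour, with the median fold of each of 10 equal bins of mean FPKM in red. The fold of TXNIP was above that of 96.0% of these genes and the fold of GPX1 above that of 2.27%, at any level. In all, 69 genes fall outside the plotted range.

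Other genes of these pathways that are not among the 35 were called lower about as often as all genes. Of 97 listed, 96 had a row and 74 could be tested at a mean of 1 FPKM or more. The authors' deposited table called 23 of the 74 lower and 1 higher, with a median log2 fold of -0.69, where 31.4% of all genes were called lower. Against the median gene 1 was above and 2 were below. The gene above was BLVRB, biliverdin reductase B, which rose from 6.18 to 17.6 FPKM (log2 1.51, implied SE 0.468, q = 0.00757) in the authors' deposited table and stood 2.13 units above the median gene (adjusted p = 0.000217, normal test). The genes below were MTHFD1, a folate enzyme that yields NADPH (27.8 to 8.97 FPKM; adjusted p = 0.00531, normal test), and SEPHS1, a relative of selenophosphate synthetase (45.0 to 17.1 FPKM; adjusted p = 0.0479, normal test). Their log2 folds were -1.63 and -1.39 in the authors' deposited table.

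By list, genes that supply NADPH, the reductant that both thiol systems use, were called lower in 8 of 11 testable cases in the authors' deposited table, with a median log2 fold of -0.93. Of all genes, 31.4% were called lower there. In the bins of mean FPKM from 13.8 up, which held most of the NADPH genes, 46.6% to 61.9% of all genes were. MTHFD1 was the one NADPH gene below the median gene. Of 7 testable genes of cystine uptake and glutathione turnover, 3 were called lower, among them the exporter genes ABCC1 (-1.19) and ABCC4 (-1.32), in the authors' deposited table. Of 10 testable NRF2 partners and degradation factors, 2 were called lower, with NFE2L3, a relative of NRF2, at -1.24 in the authors' deposited table.

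The counts of the remaining lists stand beside 31.4% of all genes called lower and 2.2% called higher in the authors' deposited table. Of 11 testable further NRF2 target genes, 3 were called lower and 1, BLVRB, higher, with a median log2 fold of -0.30, in the authors' deposited table. The lower ones included AKR1B1, an aldose reductase gene (-1.29), and UGDH, which makes UDP-glucuronate (-1.27), in the authors' deposited table. Of 9 testable genes in the selenoprotein list, 4 were called lower, with SEPHS1 joined by SELT (-1.30) and SEPW1 (-1.27), both selenoprotein genes, in the authors' deposited table. Among 8 testable other peroxidase and transferase genes the call was GSTCD (-1.25), lower in the authors' deposited table. Glutaredoxins and other thioredoxin-fold genes gave 1 call of 9, lower, and the list with the superoxide dismutase chaperone 1 of 3, lower, in the authors' deposited table. Of 6 testable methionine sulfoxide reductase and sestrin genes the authors' test called 0, and 1, MSRB2, named after its values were seen, had an unadjusted p below 0.05.

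Markers of the line were mostly present. Of 10 sympathoadrenal markers 9 stood at 1 FPKM or more in undifferentiated and 8 in differentiated cells, with TH, the first enzyme of catecholamine synthesis, at 0 and 0.202 FPKM. NTRK2 and RARB, which retinoic acid is known to induce in this line, summed to 1.16 FPKM before and 13.6 FPKM after. The proliferation markers MKI67, TOP2A and CCNB1 summed to 271 and 91.0 FPKM, so the fall in these moved with the falls described above, and its part in them was not tested. Of 16 markers of other cells, fibroblast markers summed to 29.4 and 27.3 FPKM (4 of 6 at 1 FPKM or more, COL1A1 and COL1A2 near 0), Schwann markers to 4.63 and 3.35 FPKM with SOX10 at or near 0, epithelial markers to 0.679 and 1.03 FPKM and leukocyte markers to 0.747 and 1.69 FPKM with PTPRC at or near 0. In bulk RNA, fewer cells that express a gene and less of its RNA per cell cannot be told apart.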

How the data were processed

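Total RNA of 4 libraries was depleted of ribosomal RNA and sequenced on an Illumina instrument, per the labels' protocols. The submitters' processing notes name TopHat2 2.0.8, Cufflinks 2.0.2 and hg19. The authors deposited, per the file headers, 1 FPKM for each gene in each group, together with the log2 fold change and its statistic, p-value and q-value. How libraries were combined and scaled, and whether strand was used, is not given in the sources used here. Recomputing the Benjamini-Hochberg adjustment over the 12810 tested rows gave the deposited q-value to within 1.48e-06. The planned limma test needs values per library and was not run; the authors' q below 0.05 took its place.

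Genes averaging 1 FPKM or more were set against the median gene with a normal test, Benjamini-Hochberg adjusted over 11169 genes. It used the error implied by fold and statistic. A run on simulated data drew its noise from those same errors, so it cannot show whether they are right. The normal test inherits the authors' variance model. Intervals are the value ± 1.96 errors. The 28 rows with a date for a name were left out. Each listed start was moved up by 1, because in 2043 rows end minus start gave the RefSeq gene length. Of the 97 other pathway genes, 1 was matched through a newer symbol. All members are named, and of the other pathway genes up to 10 per direction that were called, by distance from the median gene. Members and lists were chosen with earlier results of these data known. Start regions are RefSeq's (GRCh38.p14); words of 50 bases come from GENCODE release 29 transcripts. Python 3.11.15, numpy 2.4.6, pandas 2.3.3, scipy 1.17.1 and matplotlib 3.10.9 were used. Alternatives covered scaling, threshold, filter, pseudocount, loci and the reference median. One overlap between loci is not reported here.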

Additional observations from a re-analysis of the deposited data

How the results depend on the processing

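The calls depend on the scaling between groups. The number of members called lower went from 18 to 1 when folds were centred on the median gene, to 1 with equal FPKM sums and to 1 with quantile normalization, where the shift of log2 folds was 0.62, 0.78 and (median) 0.60; that 1 member was GPX1, and TXNIP was called higher under each. The count lower was 9 at a q threshold of 0.01. The members' median of -0.74 became -0.11, 0.0452 and -0.12 under the same 3 scalings. Of the other pathway genes, 23 called lower became 2, 1 and 1, and 1 called higher became 3 with equal sums. With equal sums the folds of GPX4 (0.0930), PRDX4 (0.0026), SRXN1 (0.0681) and SOD1 (0.0627) turned positive, as did that of SOD1 (0.0366) with quantile normalization. The equal sums are those of all 23576 rows, tested or not, at 2.04e+06 FPKM before and 1.19e+06 FPKM after. The 11169 genes alone summed to 1.30e+06 and 889863 FPKM, which lie closer together. Scaling to those sums was not run, so how far the turns with equal sums depend on rows outside these genes is unknown. The quantile normalization used the 11169 genes alone. Uncalled members turned positive in 11, 13 and 9 cases. The 2 members apart from the median gene, TXNIP and GPX1, were the count above and below under each threshold, filter and locus setting tried and with the median of genes in the same bin of FPKM (adjusted p of 2.53e-10 and 0.00676). No paired analysis was possible because the table holds 1 value per group, and leaving out a replicate was not run for the same reason. Depth is unknown, so no limit of detection can be given for HMOX1 or GPX8.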

Other observations

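The members that contain selenocysteine did not share one response. These genes were grouped after their values were seen, so the values are a description. Beside GPX1, the member TXNRD1 had a log2 fold of -0.97, TXNRD2 -1.36, GPX4 -0.69 and GPX3 -0.42 in the authors' deposited table. Selenoprotein genes outside the member list included SEPN1, linked to muscle disease, at -1.69 (4.39 to 1.36 FPKM), SELT at -1.30 and SEPW1 at -1.27, and, with no call, SELK at -0.29, SELM at -0.23, SEPHS2 at -0.11 and SEPP1 at -0.07 in the authors' deposited table. VIMP, a selenoprotein gene of endoplasmic reticulum protein degradation, stood at 19.2 and 24.6 FPKM with a log2 fold of 0.36 that was not called (q = 0.347) in the authors' deposited table. It was 0.98 over the median gene (adjusted p = 0.00951, normal test). GPX1 and VIMP were the ones among the selenoprotein genes looked at here that lay apart from the median gene.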
